A study of Mus musculus with 12 samples.

Results

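The acute-phase and JAK-STAT response genes are 10 genes of cytokine signalling and its outputs, Osmr, Il1r1, Jak3, Stat3, Socs3, Cebpd, Lcn2, Lrg1, Serpina3n and Icam1, followed here across 12 mouse hippocampal RNA libraries. They were taken as a given list of symbols and matched to the Ensembl identifiers of the count table by the GENCODE annotation of GRCm38. All 10 were found among the 21532 genes of the table, and all 10 were among the 18382 genes tested after the filter on low counts. The list was put together with results of these data known, and it was chosen in part on the extreme Lcn2 count of 1 library, stigmasterol replicate 23 at 6 h. That value and the Lcn2 comparison of injections at 6 h are therefore described without a test.

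The study asked how hippocampal gene expression differs after an injection of stigmasterol, a plant sterol, and after vehicle. All 12 libraries came from hippocampi of wild-type C57BL/6 mice that received an intraperitoneal injection. The 4 groups were vehicle at 1 h (replicates 4, 5 and 9), stigmasterol at 1 h (replicates 1, 8 and 11), vehicle at 6 h (replicates 12, 14 and 21) and stigmasterol at 6 h (replicates 13, 22 and 23), where the time is from injection to dissection. There was no group without an injection, and the labels give no sex, age, time of day or vehicle composition. The labels conflict on the compound: stigmasterol stands in the sample descriptions and the agent, beta-sitosterol (100 mg/kg) in the treatment. The group is called stigmasterol here.

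As background, cytokines of the IL-6 family bind receptors that activate Janus kinases (JAKs), which phosphorylate the transcription factor STAT3, and STAT3 then induces its own feedback inhibitor SOCS3 together with acute-phase genes. IL-1 acts through its receptor and NF-kB, and the C/EBP factors act with both routes on the same outputs. In brain, vessels, astrocytes and microglia are known for this response during inflammation of the body or of the tissue.

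Total counts were between 27613253 and 42043875 per library. The hippocampal neuron markers were present throughout, since all 14 of 14 listed genes were tested and their summed level lay between 1493 and 1886 CPM, the read count scaled to library size, over the 12 libraries. The libraries differed in tissue that borders the hippocampus: the summed level of 16 choroid plexus markers ran from 74.5 CPM in vehicle replicate 4 and 95.04 CPM in vehicle replicate 9, both at 1 h, to 5181 CPM in stigmasterol replicate 11 at 1 h. These are bulk libraries, in which more cells of a type and more RNA per cell cannot be told apart.

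Promoter sequence is shown for members that were higher at 6 h than at 1 h. Their window also held a match to the motif of a factor of the pathway, outside annotated untranslated exons. RefSeq windows of 250 bases before the start site were available for 9 of the 10 members, in 10 windows since Il1r1 had more than 1. Both strands were searched for a STAT motif (TTCNNNGAA), a C/EBP motif (TTGCNNAA), an NF-kB motif (GGG and TTCC with any 3 bases between) and an AP-1 motif (TGANTCA). Measured from the RefSeq start site, a STAT match stood before Socs3 and Icam1 and a C/EBP match before Lcn2. An NF-kB match, GGGCTCTTCC, stood 34 to 25 bases before the RefSeq start of Lrg1. The GENCODE genes of Socs3, Lcn2 and Lrg1 begin further upstream, so these 3 matches lie inside the annotated genes. The Lrg1 match fell outside the stretch left without annotated untranslated exons, so no Lrg1 sequence is shown. The stretches below are GRCm38.p6, 5′ to 3′ on the gene's strand, without annotated untranslated exons, and capitals mark the match.
Socs3 chr11:117969452-117969616, minus strand: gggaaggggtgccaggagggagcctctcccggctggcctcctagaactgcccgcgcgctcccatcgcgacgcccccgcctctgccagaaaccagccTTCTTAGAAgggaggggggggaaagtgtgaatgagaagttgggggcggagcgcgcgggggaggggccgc
Icam1 chr9:21015690-21015939, plus strand: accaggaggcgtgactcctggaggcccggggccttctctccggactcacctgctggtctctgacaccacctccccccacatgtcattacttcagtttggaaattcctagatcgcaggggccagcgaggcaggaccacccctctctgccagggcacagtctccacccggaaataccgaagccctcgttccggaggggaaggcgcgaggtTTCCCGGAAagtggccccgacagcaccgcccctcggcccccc
Lcn2 chr2:32387798-32387989, minus strand: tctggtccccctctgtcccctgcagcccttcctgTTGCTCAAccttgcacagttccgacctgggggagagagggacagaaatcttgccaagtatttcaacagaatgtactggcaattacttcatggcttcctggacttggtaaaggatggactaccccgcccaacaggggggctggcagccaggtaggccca
The STAT match lay 154 to 146 bases before the Socs3 start and 42 to 34 bases before the Icam1 start, and the C/EBP match lay 216 to 209 bases before the Lcn2 start. Of the Lcn2 stretch, 139 of 192 bases lie in a coding exon of another annotated Lcn2 transcript.

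Among the other members, Serpina3n held an NF-kB match (GGGCTTTTCC, 171 to 162 bases before the start). The windows of Il1r1 held a C/EBP match and an NF-kB match, the latter inside the annotated gene. Osmr, Stat3 and Jak3 held none of the 4 motifs. Of 32851 windows of the same length in the whole table, 7.02% held the STAT motif, 9.56% the C/EBP motif, 4.65% the NF-kB motif and 6.75% the AP-1 motif. Of the 10 member windows, 2 held the STAT motif, 2 the C/EBP motif, 3 the NF-kB motif and 0 the AP-1 motif. A match describes letters in a window, and binding was not measured here.

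The 10 genes stood at very different levels. Per kilobase of exon, Serpina3n, a protease inhibitor known from reactive astrocytes, was highest at 25.1 CPM per kb on average over the 12 libraries, and Stat3 followed at 7.02. Il1r1 stood at 3.65, Jak3 at 2.45, Cebpd at 1.80, Lrg1 at 1.38, Lcn2 at 1.21, Icam1 at 1.07, Osmr at 0.911 and Socs3 at 0.875 CPM per kb. The ranges over libraries did not overlap between Serpina3n (20.6 to 30.2) and Stat3 (6.48 to 7.86), nor between Stat3 and Il1r1 (2.45 to 4.41), whereas from Il1r1 downward each gene's range overlapped that of its neighbour. The Lcn2 mean rests on replicate 23: over the other 11 libraries it was 0.487 CPM per kb, the lowest of the 10. With the longest transcript as the length, 5 of the 10 kept their place, and Osmr (2.01) and Icam1 (1.83) stood above Cebpd and Lrg1. Lcn2 was at 2.31 by that length, and at 0.930 and again lowest without replicate 23.

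The spread over the 12 libraries set the genes apart in another order. The coefficient of variation was 209% for Lcn2, 54.6% for Lrg1, 50.5% for Socs3, 33.2% for Cebpd, 27.6% for Jak3, 26.2% for Osmr and 24.5% for Icam1. It was 14.7% for Il1r1, 11.8% for Serpina3n and 7.07% for Stat3. The Lcn2 value rests on replicate 23: over the other 11 libraries it was 75.9%, ahead of Socs3 (51.9%) and Lrg1 (50.4%). With or without that library, the transcription factor Stat3 was the least variable member.

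**Figure D1:**
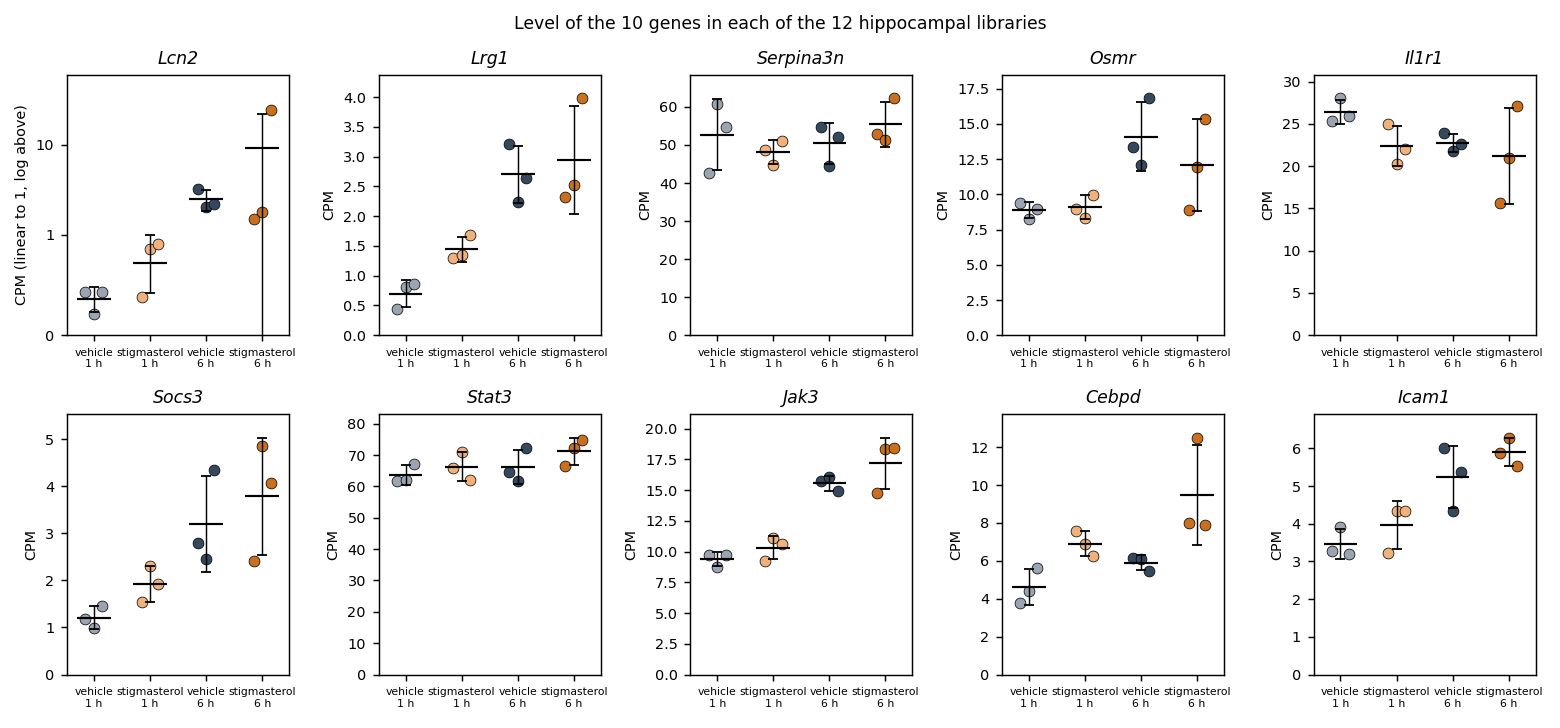
Each panel plots 1 gene in CPM for the 3 libraries of each group (points), with the group mean (line) and SD (bar); the Lcn2 axis is linear up to 1 CPM and logarithmic above. All 6 libraries at 6 h lie above all 6 at 1 h for Lcn2, Lrg1, Socs3, Jak3 and Icam1, and 1 stigmasterol library at 6 h stands at 23.99 CPM for Lcn2.

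The clearest difference among the members was between 6 h and 1 h, in mice of both injections. Averaged over the injections, 6 of the 10 genes rose: Lcn2, Lrg1, Socs3, Jak3, Icam1 and Osmr. A gene is said to rise or fall where its adjusted p in edgeR's quasi-likelihood test, with Benjamini-Hochberg adjustment over all 18382 genes, was below 0.05. Of all tested genes 7.97% passed in this comparison and 4.05% rose. The median log2 fold change was 0.56 over the members and 0.0035 over all tested genes. The members were listed with results of these data known, so their count and median are a description. The Lcn2 call in the main fit holds stigmasterol replicate 23, the library that named it, and is a description as well. Without that library Lcn2 passed in edgeR. With it, the call was lost in limma-voom (adjusted p = 0.0627) and with the endothelial covariate in edgeR (adjusted p = 0.0532). It was also lost in some edgeR fits without 1 other library, given below.

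The receptors came first in the pathway. Osmr (chromosome 15, 6813577 to 6874969, minus strand) encodes the subunit that gives oncostatin M its own receptor. At 1 h it stood at 9.41, 8.28 and 8.99 CPM in vehicle replicates 4, 5 and 9 and at 8.96, 9.98 and 8.30 CPM in stigmasterol replicates 1, 11 and 8. At 6 h it stood at 13.4, 12.1 and 16.8 CPM in vehicle replicates 12, 14 and 21 and at 8.89, 11.96 and 15.4 CPM in stigmasterol replicates 13, 22 and 23. Of the 6 libraries at 6 h, 5 lay above every library at 1 h, and stigmasterol replicate 13 did not.

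Osmr rose by 0.54 ± 0.12 (log2 fold change ± SE, n = 6 libraries per time; edgeR adjusted p = 0.0275). In edgeR fits without 1 library, the call was lost on leaving out vehicle replicate 5 (adjusted p = 0.0644), vehicle replicate 9 (0.0597) or stigmasterol replicate 1 (0.0544) at 1 h, or vehicle replicate 21 at 6 h (0.053). The log2 fold change in these fits was between 0.46 and 0.55. Il1r1 (chromosome 1, 40225080 to 40317257, plus strand), the signalling receptor of IL-1, did not pass the test. Its level was 20.3 to 28.0 CPM at 1 h and 15.6 to 27.1 CPM at 6 h, and its log2 fold change was -0.15 ± 0.11 (edgeR adjusted p = 0.41).

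Jak3, the only kinase among the members, rose, and the transcription factor Stat3 did not pass the test. Jak3 (chromosome 8, 71676296 to 71690575, plus strand) encodes the Janus kinase that pairs with the common gamma chain of interleukin receptors. Its level at 1 h was 9.75, 8.77 and 9.75 CPM in vehicle replicates 4, 5 and 9 and 9.27, 10.6 and 11.1 CPM in stigmasterol replicates 1, 11 and 8. Its level at 6 h was 15.7, 16.1 and 14.9 CPM in vehicle replicates 12, 14 and 21 and 14.8, 18.4 and 18.5 CPM in stigmasterol replicates 13, 22 and 23. The times did not overlap, and within each time the vehicle and stigmasterol libraries did.

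Jak3 rose by 0.73 ± 0.08 (edgeR adjusted p = 0.00199), which placed it second of all tested genes by p. It passed in all 12 edgeR fits that left out 1 library each, with values between 0.69 and 0.78. Stat3 (chromosome 11, 100885098 to 100939540, minus strand) lay between 61.8 and 71.0 CPM at 1 h and between 61.7 and 74.9 CPM at 6 h, and its log2 fold change of 0.08 ± 0.06 did not pass the edgeR test (adjusted p = 0.399). The 95% interval of the Stat3 value was -0.04 to 0.20.

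The feedback inhibitor was among the genes that rose. Socs3 (chromosome 11, 117966079 to 117970047, minus strand) encodes the inhibitor that binds gp130 and JAKs and ends the signal. At 1 h it stood at 1.18, 0.986 and 1.46 CPM in vehicle replicates 4, 5 and 9 and at 1.54, 1.92 and 2.30 CPM in stigmasterol replicates 1, 11 and 8. At 6 h it stood at 2.79, 2.45 and 4.35 CPM in vehicle replicates 12, 14 and 21 and at 2.42, 4.86 and 4.07 CPM in stigmasterol replicates 13, 22 and 23. The lowest library at 6 h was only just above the highest at 1 h, and both were stigmasterol libraries. Socs3 rose by 1.18 ± 0.20 (edgeR adjusted p = 0.0104) and passed without each of the 12 libraries in turn.

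Cebpd (chromosome 16, 15887286 to 15891031, plus strand) encodes C/EBP delta, a transcription factor that is known to be induced early in acute-phase responses. Its level at 1 h was 3.801, 4.40 and 5.64 CPM in vehicle replicates 4, 5 and 9 and 7.56, 6.26 and 6.91 CPM in stigmasterol replicates 1, 11 and 8. Its level at 6 h was 6.15, 6.12 and 5.48 CPM in vehicle replicates 12, 14 and 21 and 7.99, 12.5 and 7.90 CPM in stigmasterol replicates 13, 22 and 23. Cebpd did not overlap between the injections at either time. Between the times it overlapped in vehicle mice and did not in stigmasterol mice. The log2 fold change from 1 h to 6 h was 0.41 ± 0.13 and missed the edgeR threshold (adjusted p = 0.0744), which it passed without stigmasterol replicate 23 (0.46 ± 0.13, adjusted p = 0.0358).

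Among the outputs, Lrg1 (chromosome 17, 56119678 to 56122001, minus strand) encodes a secreted leucine-rich glycoprotein made by liver and endothelium in inflammation. At 1 h it stood at 0.436, 0.810 and 0.853 CPM in vehicle replicates 4, 5 and 9 and at 1.30, 1.69 and 1.34 CPM in stigmasterol replicates 1, 11 and 8. At 6 h it stood at 3.21, 2.25 and 2.65 CPM in vehicle replicates 12, 14 and 21 and at 2.32, 2.53 and 3.98 CPM in stigmasterol replicates 13, 22 and 23. At 1 h the 2 injections did not overlap, and at 6 h they did, all 6 libraries above those at 1 h. Lrg1 rose by 1.49 ± 0.19 (edgeR adjusted p = 0.00233) and passed without each of the 12 libraries in turn.

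Lcn2 (chromosome 2, 32384633 to 32388252, minus strand) encodes lipocalin 2, a secreted protein that binds the iron carriers of bacteria. Its level at 1 h was 0.436, 0.211 and 0.427 CPM in vehicle replicates 4, 5 and 9 and 0.379, 0.909 and 0.861 CPM in stigmasterol replicates 1, 11 and 8. Its level at 6 h was 3.27, 2.02 and 2.21 CPM in vehicle replicates 12, 14 and 21 and 1.52, 1.82 and 23.99 CPM in stigmasterol replicates 13, 22 and 23. Raw counts were between 6 and 35 at 1 h, and between 49 and 110 at 6 h apart from 789 in stigmasterol replicate 23. Every library at 6 h lay above every library at 1 h, and replicate 23 lay far above the rest.

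Averaged over the injections Lcn2 was 3.22 ± 0.68 higher on the log2 scale (edgeR adjusted p = 0.0208), a value that contains replicate 23, which named the gene. Without that library it was 2.00 ± 0.25 higher (edgeR adjusted p = 0.00191). In edgeR fits that kept replicate 23, the call was lost on leaving out vehicle replicate 5 (adjusted p = 0.0566), vehicle replicate 9 (0.0513) or stigmasterol replicate 1 (0.0501) at 1 h, or vehicle replicate 14 at 6 h (0.0502). In vehicle mice alone, Lcn2 was 2.77 ± 1.06 higher (edgeR adjusted p = 0.163), and 2.77 ± 0.35 higher when replicate 23 was left out of the shared estimate of spread (adjusted p = 0.00924).

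Icam1 (chromosome 9, 21015985 to 21028817, plus strand) encodes the adhesion molecule by which activated endothelium holds leukocytes. At 1 h it stood at 3.27, 3.91 and 3.20 CPM in vehicle replicates 4, 5 and 9 and at 3.22, 4.34 and 4.33 CPM in stigmasterol replicates 1, 11 and 8. At 6 h it stood at 6.00, 4.35 and 5.37 CPM in vehicle replicates 12, 14 and 21 and at 5.89, 6.29 and 5.53 CPM in stigmasterol replicates 13, 22 and 23. Vehicle replicate 14 at 6 h was nearly level with the highest library at 1 h. Icam1 rose by 0.59 ± 0.11 (edgeR adjusted p = 0.0155) and passed without each of the 12 libraries in turn.

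Serpina3n (chromosome 12, 104406729 to 104414329, plus strand) lay between 42.6 and 60.9 CPM at 1 h and between 44.5 and 62.3 CPM at 6 h. Its log2 fold change was 0.07 ± 0.09 and did not pass the edgeR test (adjusted p = 0.657). Its family has near-identical copies, so its count may hold or lack reads of its relatives. Overlapping genes touched other counts: Cebpd shares its locus with Spidr on the opposite strand (156 to 239 counts per library), Icam1 with the antisense transcript Gm47079 (73 to 131 counts), Jak3 with Insl3 (0 to 6 counts) and Stat3 with Stat5a (72 to 165 counts). Whether reads were assigned by strand is not given in the sources used here.

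**Figure D2:**
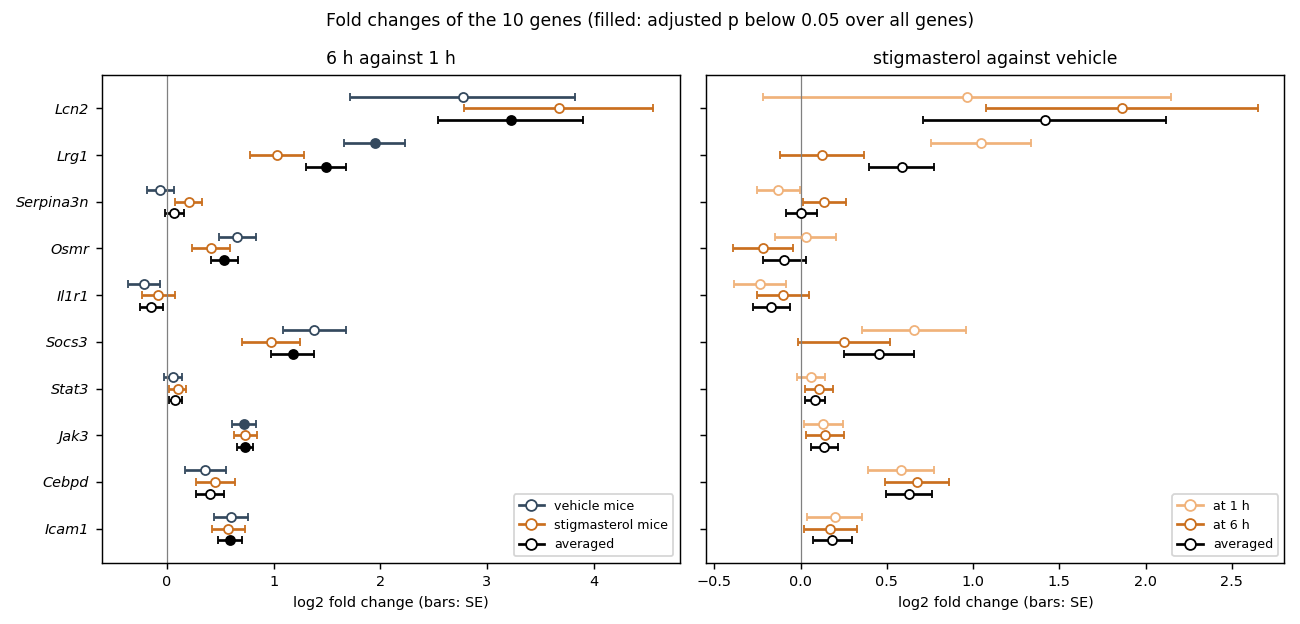
Points give the log2 fold change and bars the SE, at left for 6 h against 1 h and at right for stigmasterol against vehicle, and filled points passed an adjusted p of 0.05 over all genes in edgeR's test. Filled points appear at left only, 6 averaged over the injections and 2 in vehicle mice.

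Within each injection fewer members passed. In vehicle mice, Lrg1 rose by 1.95 ± 0.28 (edgeR adjusted p = 0.0256) and Jak3 by 0.72 ± 0.11 (adjusted p = 0.0269), so 2 of 10 members passed where 0.675% of all tested genes did. With the plexus covariate or the endothelial covariate, 0 members and 0 of all tested genes passed. In the same comparison all 16 of 16 choroid plexus markers (median log2 fold change 1.204) and 13 of 14 meningeal markers (0.71, 6 at an unadjusted p below 0.05) had higher values at 6 h. Both calls were lost without any 1 of the 6 vehicle libraries, with edgeR adjusted p between 0.0546 and 0.139 for Lrg1 and between 0.0724 and 0.139 for Jak3. The values of Socs3 (1.38 ± 0.30, edgeR adjusted p = 0.0527), Osmr (0.66 ± 0.18, 0.0819) and Icam1 (0.60 ± 0.16, 0.0819) missed the threshold. Without overlap, 6 of the 10 members stood higher at 6 h in vehicle mice, as did 15.9% of all tested genes, and Il1r1 stood lower, as did 17.4%.

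In stigmasterol mice, 0 of 10 members passed in edgeR, where 0.00544% of all tested genes did, and 2 passed in DESeq2, among 100 of all genes. At an unadjusted p below 0.05 there were 7 members, Lcn2 with replicate 23 among them, against 9.99% of all tested genes. The largest edgeR evidence was for Jak3 (0.73 ± 0.11, adjusted p = 0.0745), followed by Lcn2 (3.67 ± 0.89, 0.242, with replicate 23) and Lrg1 (1.03 ± 0.25, 0.244). Socs3 gave 0.98 ± 0.27, Icam1 0.58 ± 0.16, Cebpd 0.45 ± 0.18 and Osmr 0.41 ± 0.18. Without overlap, 7 of the 10 members stood higher at 6 h, against 6.91% of all tested genes. Averaged over the injections the share was 5 of 10 against 2.03%.

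The difference between the arms was tested as the interaction of injection and time. It gave 0 of 10 calls and 0% of all tested genes in edgeR (1 member and 2.31% of all genes at an unadjusted p below 0.05) and 0 calls among the members in DESeq2. The 10 include Lcn2 with replicate 23. Lrg1 was the member with the smallest p: the difference, stigmasterol minus vehicle, was -0.92 ± 0.38 on the log2 scale (unadjusted p = 0.0309, edgeR adjusted p = 1). For Jak3 the difference was 0.01 ± 0.16 with a 95% interval of -0.32 to 0.35.

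Some cell type markers moved with time beside these genes. Of 15 endothelial markers Ly6a (0.47 ± 0.10, edgeR adjusted p = 0.0179) and Ly6c1 (0.33 ± 0.08, 0.0304) rose and Itm2a fell (-0.23 ± 0.06, 0.0491), and the summed level of the list was 577 to 682 CPM at 1 h and 609 to 663 CPM at 6 h. With the mean level of the endothelial markers as a covariate, 2 of the 10 members passed (Lrg1 and Jak3) among 38 of all genes, with log2 fold changes between 0.43 and 4.02 for the 6 genes. With the choroid plexus markers as a covariate 6 of 10 passed, among 1017 of all genes. Without either covariate, 1465 of all genes passed.

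Of 15 neutrophil markers, 12 were in the table and 6 were tested, of which S100a8 (1.81 ± 0.47, edgeR adjusted p = 0.0373) and Csf3r (0.33 ± 0.09, 0.0432) rose. The summed level of the 12 was 14.2 to 21.1 CPM at 1 h and 17.6 to 23.96 CPM at 6 h. A large part of it was Csf3r, at 8.28 to 11.3 CPM at 1 h and 9.79 to 13.2 CPM at 6 h. The granule gene Camp had 0 to 9 counts per library at 6 h. In stigmasterol replicate 23, the library with the highest Lcn2, the summed level was 17.6 CPM, the lowest at 6 h. The next lowest was 17.72 CPM in vehicle replicate 14. The list's mean log2 CPM was also lowest at 6 h in replicate 23 (-1.216, against -1.16 in vehicle replicate 14), as was Csf3r. Single genes of the list were mixed in replicate 23. Camp and Ltf had 0 counts there, Ngp and Retnlg 4 each, S100a8 20 and S100a9 33. Of 13 astrocyte markers, Fgfr3, Sox9 and Aldh1l1 rose (0.52, 0.56 and 0.32), and of 12 pericyte and smooth muscle markers, Pdgfrb and Cspg4 rose (0.53 and 0.46), while 5 had values below 0 and the list's median was 0.02. In edgeR fits without 1 library each, Ly6a, Fgfr3, Sox9, Pdgfrb and Cspg4 passed in 12 of 12, Ly6c1 and Aldh1l1 in 5, and S100a8, Csf3r and Itm2a in 3. None of 13 microglia markers passed in edgeR, and 1 had an unadjusted p below 0.05. Of 14 hippocampal neuron markers, Iyd (-0.41) and Trpc6 (-0.34) fell, 10 had values below 0, and the list's median was -0.06. Without 1 library each, Iyd passed in edgeR in 10 of 12 fits and Trpc6 in 3. Of 13 striatum markers, 10 had values below 0 (median -0.36) and 0 passed in edgeR.

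Vehicle libraries at 1 h stood apart in other markers. Vehicle replicate 5 had blood cell markers at 265 CPM in sum against 46.3 to 97.3 CPM in the other 11 libraries, and replicates 4 and 9 had the lowest plexus levels. Without vehicle replicates 4 and 9 at 1 h, chosen for removal after the data had been seen, 1 of 10 members passed in edgeR (Jak3, 0.79 ± 0.11, adjusted p = 0.043), among 31 of all genes, and 1 vehicle library was left at 1 h, assumed to vary like the other groups. Lrg1 was then 1.39 ± 0.23 higher (adjusted p = 0.0516), Socs3 1.33 ± 0.29, Lcn2 3.61 ± 1.08, Osmr 0.59 ± 0.17 and Icam1 0.50 ± 0.15.

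Between stigmasterol and vehicle in edgeR, 0 of the 10 members and 0% of all tested genes passed at 1 h. At 6 h, 0 of the 9 members other than Lcn2 and 0% of all tested genes passed. Averaged over the times, 0 of the 10 passed, Lcn2 with replicate 23 among the 10, and 0% of all tested genes did. At an unadjusted p below 0.05, 3 members passed at 1 h against 7.52% of all tested genes, 1 at 6 h (Cebpd) of the 9 members other than Lcn2 against 4.1%, and 3 averaged over the times against 9.17%. In DESeq2, 0 members passed at 1 h among 21 of all genes, 0 of these 9 at 6 h among 4, and 1 averaged over the times among 100. Averaged over the times, edgeR called 26 of all genes without stigmasterol replicate 23 and 3 with no filter or with robust fits, and 0 members in each.

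Cebpd was the member with the most even difference. Group means were 4.61 ± 0.94 CPM (SD, n = 3) after vehicle and 6.91 ± 0.65 CPM after stigmasterol at 1 h, and 5.91 ± 0.38 and 9.47 ± 2.64 CPM at 6 h. The log2 fold change was 0.58 ± 0.19 at 1 h (unadjusted p = 0.00859, edgeR adjusted p = 0.649) and 0.68 ± 0.19 at 6 h (unadjusted p = 0.00291, edgeR adjusted p = 1). Averaged over the times it was 0.63 ± 0.13 (unadjusted p = 0.000363, edgeR adjusted p = 0.186), with all 6 stigmasterol libraries above all 6 vehicle libraries, as for 0.343% of all tested genes.

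The averaged Cebpd value lay between 0.50 and 0.72 under all alternatives, and only the DESeq2 Wald test passed the threshold (adjusted p = 0.00419). Without stigmasterol replicate 23 the edgeR adjusted p was 0.0601, and without vehicle replicates 4 and 9 at 1 h it was 0.907. The stigmasterol difference did not change with time beyond its error (0.09 ± 0.26, 95% interval -0.48 to 0.67). Cebpb, which encodes the related C/EBP beta, stood at 2.07 to 2.65 CPM after vehicle and 2.78 to 3.20 CPM after stigmasterol at 1 h, and at 1.56 to 1.75 and 1.83 to 3.44 CPM at 6 h. Its averaged log2 fold change was 0.60 ± 0.15 (edgeR adjusted p = 0.255).

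Lrg1 and Socs3 stood higher after stigmasterol at 1 h in all 3 libraries, without passing the test. Lrg1 was 1.04 ± 0.29 higher after stigmasterol at 1 h (unadjusted p = 0.00323, edgeR adjusted p = 0.649), with 53 to 65 counts against 14 to 28, and its value was 0.13 ± 0.24 at 6 h, turning to -0.15 without replicate 23. Socs3 was 0.66 ± 0.30 higher at 1 h (edgeR adjusted p = 0.662) and 0.25 ± 0.27 at 6 h. With Cebpd, these were the 3 of 10 members whose stigmasterol libraries all stood above the vehicle libraries at 1 h, against 8.23% of all tested genes. Il1r1 was the 1 that stood below, against 7.56%, at 22.4 ± 2.4 CPM after stigmasterol and 26.4 ± 1.4 CPM after vehicle. At 6 h only Cebpd stood above, against 3.47%.

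At 1 h, markers of bordering tissue differed between the injections as well. All 14 of 14 meningeal fibroblast markers and all 16 of 16 choroid plexus markers had higher values after stigmasterol, with 7 and 1 at an unadjusted p below 0.05 and 0 passing in edgeR. The summed plexus level was 2089 to 5181 CPM after stigmasterol and 74.5 to 3066 CPM after vehicle. The summed meningeal level overlapped, at 145, 191 and 329 CPM after stigmasterol (replicates 8, 1 and 11) and 134 to 152 CPM after vehicle. All 13 of 13 striatum markers were higher too. Their summed level was 804 CPM in stigmasterol replicate 8, 404 and 428 CPM in replicates 1 and 11, and 390 to 411 CPM after vehicle. With the plexus covariate the values at 1 h were 1.01 for Lrg1, 0.48 for Cebpd and 0.48 for Socs3, and without vehicle replicates 4 and 9 they were 0.83, 0.65 and 0.96. The part of meningeal and striatal tissue in these values was not tested.

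For the 6 members other than Lcn2, Lrg1, Socs3 and Cebpd, the stigmasterol values were small. They lay between -0.24 and 0.20 at 1 h and between -0.22 and 0.17 at 6 h, and their 95% intervals together spanned -0.60 to 0.54. Averaged over the times, their intervals spanned -0.40 to 0.43, so differences beyond that size lie outside them.

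Lcn2 in stigmasterol replicate 23 at 6 h is a description of 1 library. The mean was 9.11 ± 12.9 CPM (SD, n = 3) after stigmasterol and 2.50 ± 0.67 CPM after vehicle at 6 h, a ratio of 3.64, and the ratio was 0.667 without that library. The other stigmasterol libraries, at 1.52 and 1.82 CPM, lay below all 3 vehicle libraries. On the log2 scale the fitted difference was 1.86, and it turned to -0.59 without replicate 23.

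Replicate 23 was above the mean of the 12 libraries (log2 CPM) for all 9 other members and for 51.5% of all tested genes. It was the highest of the 12 for 4 of the 9 and for 10.3% of all tested genes. Other libraries at 6 h were above that mean for most of the 9 too. The count was 7 in stigmasterol replicate 22 and vehicle replicates 12 and 21, 6 in stigmasterol replicate 13 and 4 in vehicle replicate 14. Stigmasterol replicate 22 was the highest for 3 of the 9 and for 13.2% of all tested genes. Among genes with at least 1 CPM in replicate 23, Lcn2 had the largest ratio to the highest of the other 11 libraries, 7.34. Next were Otoa (3.62), the secretoglobin Scgb3a1 (3.43), the monocyte chemokine Ccl12 (3.28), the myeloid receptor Cd300lf (3.00), Lao1 (2.64), Gm11827 (2.36), the complement receptor C5ar1 (2.30), the cytokine Il1a (2.21) and Rtp1 (2.06).

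**Figure D3:**
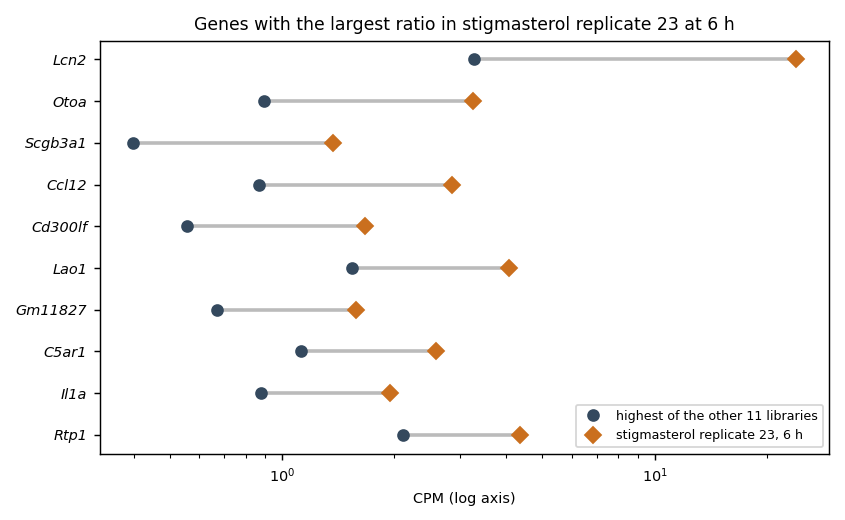
For the 10 genes with the largest ratio, the diamond gives the CPM in stigmasterol replicate 23 at 6 h and the circle the highest CPM among the other 11 libraries, on a log axis. Lcn2 stands at 23.99 against 3.27 CPM, and the other 9 genes at 2.06 to 3.62 times the highest other library.

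Other genes of the pathway were followed by list in the same comparison of 6 h with 1 h, in which 4.05% of all tested genes rose and 3.92% fell. The lists hold none of the members that rose. Lists with 1 called gene of 14 to 20 are near these shares. Among 14 tested IL-6 family cytokines and receptors, Csf3r alone rose. Of the 2 with the highest level, the common subunit Il6st gave 0.07 ± 0.06 and Cntfr, the receptor of ciliary neurotrophic factor, gave 0.23 ± 0.07 (edgeR adjusted p = 0.0618). Among 8 other JAK and STAT genes, the kinase Tyk2 rose (0.25 ± 0.06, edgeR adjusted p = 0.0337), and among 16 negative regulators, the phosphatase Ptpn6 rose (0.34 ± 0.09, 0.0454).

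Of 19 IL-1 signalling genes, 4 rose. The cytokine Il1b rose by 2.23 ± 0.49 (edgeR adjusted p = 0.0227) on 1 to 5 counts per library at 1 h and 2 to 22 at 6 h, and Irak3, an inhibitor of the pathway in myeloid cells, rose by 0.74 ± 0.17 (0.0246). The kinase Irak1 (0.21 ± 0.05) and its partner Tab1 (0.29 ± 0.07) rose less. In contrast to Cebpd, all 5 tested members of the other C/EBP list had values below 0 and 0 passed in edgeR, with 2 at an unadjusted p below 0.05, Cebpa (-0.23 ± 0.09) and Cebpz (-0.18 ± 0.07).

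Among outputs, Bcl3, an NF-kB cofactor and STAT3 target, had the smallest p of all tested genes and rose from 0.243 ± 0.085 CPM at 1 h to 1.57 ± 0.21 CPM at 6 h (SD, n = 6; log2 fold change 2.69 ± 0.20, edgeR adjusted p = 8.06e-05). It was the 1 gene that passed in stigmasterol mice alone (2.51 ± 0.27, adjusted p = 0.00575). Of 19 direct STAT3 targets tested, Il4ra also rose (0.70 ± 0.18, adjusted p = 0.0367) and Fos fell (-1.12 ± 0.27, 0.0308). Of 15 endothelial adhesion molecules and chemokines, Selp rose (3.13 ± 0.66, edgeR adjusted p = 0.0208) from 0 to 4 counts per library to 7 to 29, and Cxcl12 rose by 0.19 ± 0.05.

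Of 14 acute-phase plasma protein genes, the complement gene C4b (0.41 ± 0.11, edgeR adjusted p = 0.0369) and Itih3 (0.32 ± 0.06, 0.0147) rose. None of 27 reactive astrocyte genes passed in edgeR, in a list without the risen members Lcn2 and Osmr. Of the 27, 4 had an unadjusted p below 0.05. The smallest p were those of S100a10 (-0.28 ± 0.09, edgeR adjusted p = 0.0679) and the intermediate filament gene Vim (0.25 ± 0.11, 0.149). Gfap, the most abundant of the list, gave 0.19 ± 0.10. Of 20 glucocorticoid-responsive genes, Errfi1 fell (-0.50 ± 0.07, edgeR adjusted p = 0.00457) and none rose. In edgeR fits without 1 library each, Bcl3, Itih3 and Errfi1 passed in 12 of 12, Selp in 11 (not without vehicle replicate 5), Il1b and Irak3 in 8, and the other called genes of these pathway lists in 2 to 5. Il1b was lost without stigmasterol replicate 1, vehicle replicate 4 or vehicle replicate 5 at 1 h, or vehicle replicate 14 at 6 h.

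**Figure D4:**
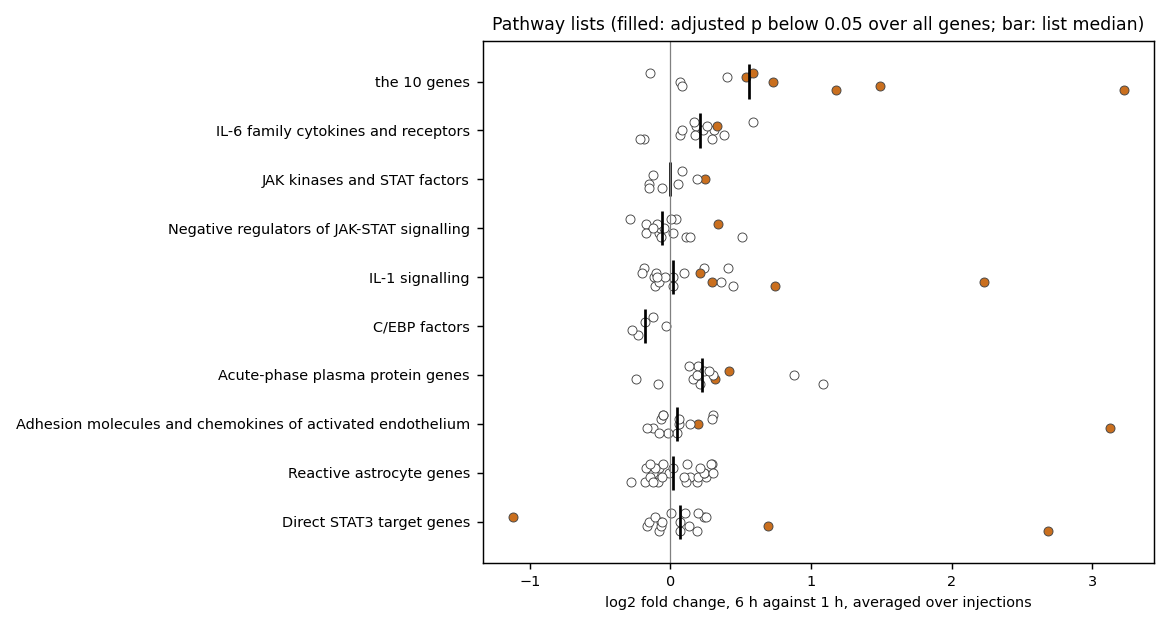
Each point is 1 tested gene of a list, placed by its log2 fold change from 1 h to 6 h averaged over the injections, filled where edgeR's adjusted p was below 0.05, and the bar is the list's median. Of the 10 genes 6 are filled. The median of the 10, 0.56, stands to the right of the other lists' medians, which lie between -0.18 and 0.23. The 10 were listed with results of these data known, and the other lists hold none of the 6. The place of the 10 is therefore a description.

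Genes whose profile over the libraries was most like a member were found by the mean absolute difference of standardised log2 CPM, which was 1.09 to 1.17 for the median gene. For Jak3 they were Idh2 (0.170), Sbno2 (0.173) and Oplah (0.179) over the 12 libraries. For Socs3 they were Lipe (0.220), Cry1 (0.255) and Idh2 (0.274), and for Lrg1 they were Ifitm1 (0.254), Tgm2 (0.257) and Idh2 (0.329). Idh2 was thus near 3 members, all of which separated the times. For Icam1 they were Ephb4 (0.310), Tgm2 (0.312) and Dqx1 (0.346), and for Osmr they were Apobec3 (0.220), Ahnak (0.262) and Dennd4c (0.305).

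For Cebpd, which separated the injections, the nearest were Crebzf (0.266), Nrarp (0.280) and Znhit2 (0.284). For Lcn2 they were Zfp275 (0.222), Il4ra (0.227) and Ly6a (0.283) with replicate 23, and Sigirr (0.226), Cd248 (0.243) and Vwf (0.247) over the other 11 libraries, so that no nearest gene was shared. The steadier members had less close matches, at 0.323 for Il1r1 (Dhx33), 0.380 for Serpina3n (Rasgrf2) and 0.425 for Stat3 (Rac2).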

How the data were processed

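Hippocampal RNA was sequenced from TruSeq mRNA libraries made, per the labels' protocols, from total RNA of integrity number 7 or above. Per the submitters' processing notes, the tools, in no stated order, included STAR 2.4.2a, DESeq, HTSeq 0.6.1p1, cutadapt, bcl2fastq 2.17.1.14 and DESeq2 1.10.1, and the build was GRCm38. Whole counts per gene, as deposited, were the basis of every test. A second deposited table gives normalized signal, which matched those counts over 1 size factor per library within 0.00843 and served in 1 alternative.

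From the counts, edgeR 4.0.16 (R 4.3.3) gave TMM-scaled CPM, a filterByExpr filter (18382 genes) and a quasi-likelihood fit with 1 coefficient per group over all 12 libraries, Benjamini-Hochberg adjusted over all tested genes at 0.05. SE is the absolute log2 fold change over the square root of F, and fold changes carry an SE of 0.117 at the median gene within a time or arm and 0.0825 when averaged. The common biological coefficient of variation was 0.123. Every gene of the table had at least 6 counts in some library. Groups and replicate numbers were read from the titles. The design text speaks of 3 animals but leaves unclear whether per group or per replicate, and p-values measure only the spread between these samples.

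The members, gene lists, tests and motifs were chosen with earlier results of these data known. All members were named, along with list genes past the threshold (up to 4 per list and comparison), otherwise up to 2 with the smallest p, and up to 2 of the highest mean CPM. The nearest profiles were sought among protein-coding genes averaging 1 CPM or more. Alternatives were other scaling (DESeq2 size factors, upper quartile), no or a stricter filter (at least 1 CPM in a whole group, mean of 2 CPM), limma-voom, a Wald test in DESeq2 1.42.0, limma-trend (limma 3.58.1, run on the deposited normalized table after adding 1 and taking log2), robust fits, only the groups compared, marker covariates, an adjusted p of 0.1 and leaving out libraries. Removal of vehicle replicates 4 and 9 at 1 h was chosen after seeing the data. Coordinates are from GENCODE M21 (21501 genes matched, 31 not) and promoters from RefSeq GRCm38.p6. The procedure was also run on simulated counts with the same biological variation for every gene, no extreme library and no tissue differences. That run therefore does not bear on Lcn2 in replicate 23 or on bordering tissue.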

Additional observations from a re-analysis of the deposited data

How the results depend on the processing

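Over 37 fold changes of the members and 866 refits, 801 kept their direction and side of the threshold, 36 lost a call, 23 gained one and 6 reversed. A refit that gave no adjusted p was counted as having kept its side, as for Lcn2 in DESeq2 in the averaged time comparison. Without 1 library each, values between injections at 6 h ran from -0.59 (without stigmasterol replicate 23) to 2.37 for Lcn2 and from -0.15 (the same library) to 0.27 for Lrg1, and the Cebpd difference of effects ran from -0.16 (without stigmasterol replicate 22) to 0.22, with -0.07 without vehicle replicate 9. Over time, Serpina3n turned to -0.0297 without vehicle replicates 4 and 9 and Il1r1 to 0.0809 with the endothelial covariate. The number of members called at 6 h against 1 h, averaged, was 6, and became 2 with the endothelial covariate, 1 without vehicle replicates 4 and 9, and 4 to 7 without 1 library each. In vehicle mice it was 2, and became 5 at an adjusted p of 0.1, 5 in DESeq2, 6 with only the groups compared, 0 with the plexus covariate, 0 with the endothelial covariate, 0 without replicates 4 and 9, and 0 to 5 without 1 library each. In stigmasterol mice it was 0, and became 1 at an adjusted p of 0.1, 1 with upper-quartile factors, 2 in DESeq2 and 0 to 1 without 1 library each. Between injections averaged over the times, DESeq2 called 1 (Cebpd). DESeq2 gave no adjusted p for Lcn2 in the averaged time comparison. The causes were not tested.

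Calls over all genes moved more: at 6 h against 1 h, averaged over the injections, from 1465 to 2298 in DESeq2, 38 with the endothelial covariate, 31 without replicates 4 and 9 and 244 to 2738 without 1 library each; in vehicle mice from 124 to between 0 and 1771; and between injections averaged over the times from 0 to 100 in DESeq2, 26 without stigmasterol replicate 23 and 3 with no filter or robust fits. For the other named genes, 246 of 759 refits lost the call and 0 reversed. In the order of levels, 5 of 10 members kept their place with the longest transcript and 6 without stigmasterol replicate 23, a setting added after seeing the data. At 6 h against 1 h the median of all genes was 0.0464 with upper-quartile scaling (59.7% of genes above 0) and 0.0035 with TMM. Lcn2 at 1 h rests on as few as 6 counts. No paired analysis was possible because the groups share no replicate numbers.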
